A study of Homo sapiens with 6 samples.

Results

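The genes described here are 10 genes of the oxygen-sensing pathway: the hypoxia-inducible factor (HIF) subunits HIF1A and EPAS1, the HIF prolyl hydroxylases EGLN1, EGLN2 and EGLN3, and 5 genes that HIF is known to switch on, VEGFA, ADM, CA9, NDRG1 and P4HA1. They were taken by symbol from a table of 58735 genes, each symbol matching 1 gene. Messenger RNA had been sequenced from wild-type AZ-521 cells, named a gastric cancer line in the labels and recorded elsewhere as a line of duodenal origin, after 48 h in 10 µM platycodon D (PD, a plant saponin) or in DMSO, its solvent. Each group had 3 samples, numbered 1 to 3, all from 1 cell line kept in serum-containing medium under 5% CO2. The labels name no oxygen tension for the cultures. Whether the replicates were separate cultures is not stated either, and the p-values therefore describe the spread between these 6 samples only.

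HIF is a pair of proteins, an alpha subunit (HIF1A or EPAS1) and a beta subunit (ARNT). When oxygen and ferrous iron are present, the EGLN enzymes hydroxylate prolines of the alpha subunit, which the VHL ubiquitin ligase then recognises and sends for degradation. Without hydroxylation the alpha subunit persists, enters the nucleus and activates genes for blood vessel growth, glycolysis, pH balance and matrix assembly, among them EGLN1 and EGLN3, which feed back on the pathway. Because this control acts mainly on the protein, the level of HIF1A or EPAS1 messenger RNA is not a measure of HIF activity.

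HIF binds DNA at a core of the letters ACGTG or GCGTG. Promoter windows of RefSeq (build GRCh38.p14, 250 bases before to 50 after a transcript start) were present for 8 of the 10 genes, with 10 windows in all. Both spellings were searched on both strands. Of the 10 windows, 7 held a match, 4 of them ACGTG and 3 GCGTG, while 48.4% of all 35116 promoter windows held either spelling (21.4% ACGTG and 36.5% GCGTG). The stretches of 250 bases before the start are given for the gene that rose (ADM), for EPAS1, for the gene with the highest deposited level of the 10 (EGLN1), for 1 of the least abundant (CA9) and for P4HA1. They run 5′ to 3′ on the gene's own strand with the matches in capitals, and CACGT is the same core read on the opposite strand.
ADM: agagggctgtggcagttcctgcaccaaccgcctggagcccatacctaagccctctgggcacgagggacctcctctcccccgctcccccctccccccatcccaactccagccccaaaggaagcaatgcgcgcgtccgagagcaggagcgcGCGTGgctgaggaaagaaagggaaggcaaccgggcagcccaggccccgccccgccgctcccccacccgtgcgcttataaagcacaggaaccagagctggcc
EPAS1: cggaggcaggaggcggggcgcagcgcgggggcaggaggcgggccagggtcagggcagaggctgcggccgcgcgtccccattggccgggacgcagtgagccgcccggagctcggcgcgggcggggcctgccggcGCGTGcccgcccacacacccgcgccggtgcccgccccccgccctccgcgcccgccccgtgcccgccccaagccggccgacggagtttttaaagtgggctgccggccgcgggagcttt
EGLN1: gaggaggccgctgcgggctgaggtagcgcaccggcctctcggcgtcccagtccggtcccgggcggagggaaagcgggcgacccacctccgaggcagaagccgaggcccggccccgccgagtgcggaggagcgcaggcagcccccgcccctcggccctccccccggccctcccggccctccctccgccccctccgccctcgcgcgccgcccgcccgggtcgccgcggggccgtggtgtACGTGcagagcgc
CA9: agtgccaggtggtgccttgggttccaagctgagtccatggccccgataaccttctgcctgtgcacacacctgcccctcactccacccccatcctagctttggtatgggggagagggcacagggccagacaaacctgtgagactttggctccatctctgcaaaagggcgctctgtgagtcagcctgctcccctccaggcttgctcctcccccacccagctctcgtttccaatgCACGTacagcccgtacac
P4HA1: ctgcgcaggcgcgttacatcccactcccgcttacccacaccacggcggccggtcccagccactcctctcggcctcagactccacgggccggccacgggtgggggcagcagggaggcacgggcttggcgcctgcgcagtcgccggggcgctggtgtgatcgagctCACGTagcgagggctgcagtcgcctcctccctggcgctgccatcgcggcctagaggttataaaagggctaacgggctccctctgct
These windows lie at chr11:10304823-10305072 (plus strand), chr2:46297157-46297406 (plus), chr1:231422288-231422537 (minus), chr9:35673678-35673927 (plus) and chr10:73096867-73097116 (minus). The match began 101 bases before the start in ADM, 117 in EPAS1, 13 in EGLN1, 18 in CA9 and 86 in P4HA1. The EGLN2 matches were a single CACGTG, which reads the same on both strands, is also the E-box bound by other factors, and was counted on each. No match was found in the EGLN3 window. A match is a string of letters and was not tested as a binding site. The RefSeq starts are not always the outermost starts of the deposited gene spans: that of EGLN1 lies 2757 bases and that of EPAS1 3740 bases inside, and that of EGLN3 511700 bases inside.

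**Figure D1:**
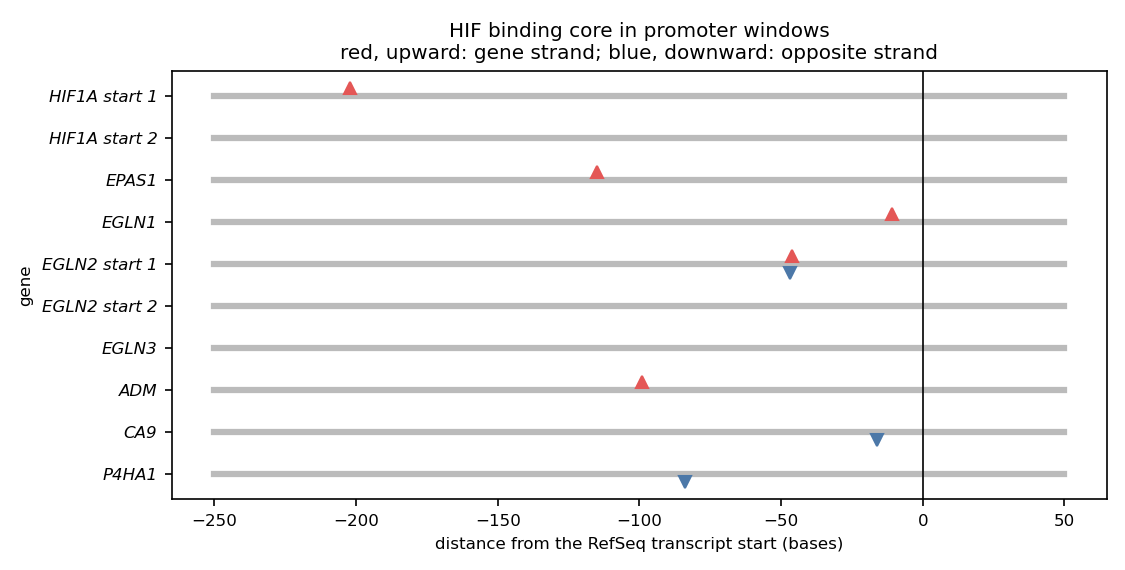
Position of the HIF core motif (triangles, pointing up on the gene's strand and down on the opposite strand) along each promoter window (grey bar), with the distance from the RefSeq transcript start in bases on the x axis. Each triangle marks the centre of a match. The matches of EGLN1 and CA9 lie closest to the start, with centres at -11 and -16 bases, and EGLN3 has none.

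Levels are given in FPKM, fragments scaled to gene length and library size, with replicates 1, 2 and 3 in that order. Reads over genes numbered between 14915538 and 16341687 per sample. Across genes, the deviation from the group mean fell with transcript GC content in DMSO replicate 1 and PD replicate 3 (Spearman rho = -0.637 and -0.524). In the other 4 samples rho was 0.0210 to 0.606. These 2 are called the samples or libraries that stood apart below. Deviations within a group cancel out, so opposite signs within a group are partly forced. PD replicate 1 deviated as strongly the other way (rho = 0.606), with PD replicate 2 at 0.0210, so this measure does not single out PD replicate 3. The labelled tissue was checked against marker genes. Of 5 general epithelial markers 0 reached 1 FPKM in 3 samples, and of 6 gastric markers 0 did, with TFF1, TFF2 and GKN1 listed at 0 throughout. Of 4 fibroblast markers COL3A1, a fibrillar collagen gene, stood at 39.5 to 47.3 FPKM in all 6 samples while COL1A1, DCN and PDGFRB stayed below 1 FPKM, and the list summed to between 40.6 and 48.4 FPKM. CDX2, an intestinal transcription factor, was the only 1 of 5 intestinal markers that reached 1 FPKM in 3 samples. The 4 endothelial markers, of interest because EPAS1 is abundant in endothelium, summed to at most 0.138 FPKM in any sample, and CDH5 was at 0 in all.

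In these samples ADM was the only 1 of the 6 tested genes that passed the test, and EPAS1, too low for the test, had a mean 4.05 times higher in PD. The alpha subunit HIF1A, the hydroxylase EGLN1 and the growth factor VEGFA did not pass, and CA9, EGLN3 and NDRG1 were close to 0 in both groups. A gene was tested if it reached 1 FPKM in at least 3 samples, and "rose" and "fell" mean an adjusted p under 0.05 in limma over 13579 genes. By this rule 14.3% of all tested genes rose and 12.7% fell, 27.1% in either direction, against 1 of the 6 tested hypoxia genes (16.7%). With a 2-fold change asked for as well, 2.84% of tested genes were called higher and 0.979% lower, and 0 of the 6 were called (0 by voom on recovered reads also, while 2 of the 6 had an unadjusted p under 0.05). The median log2 fold change was 0.15 over the 6 and 0.00 over all tested genes.

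**Figure D2:**
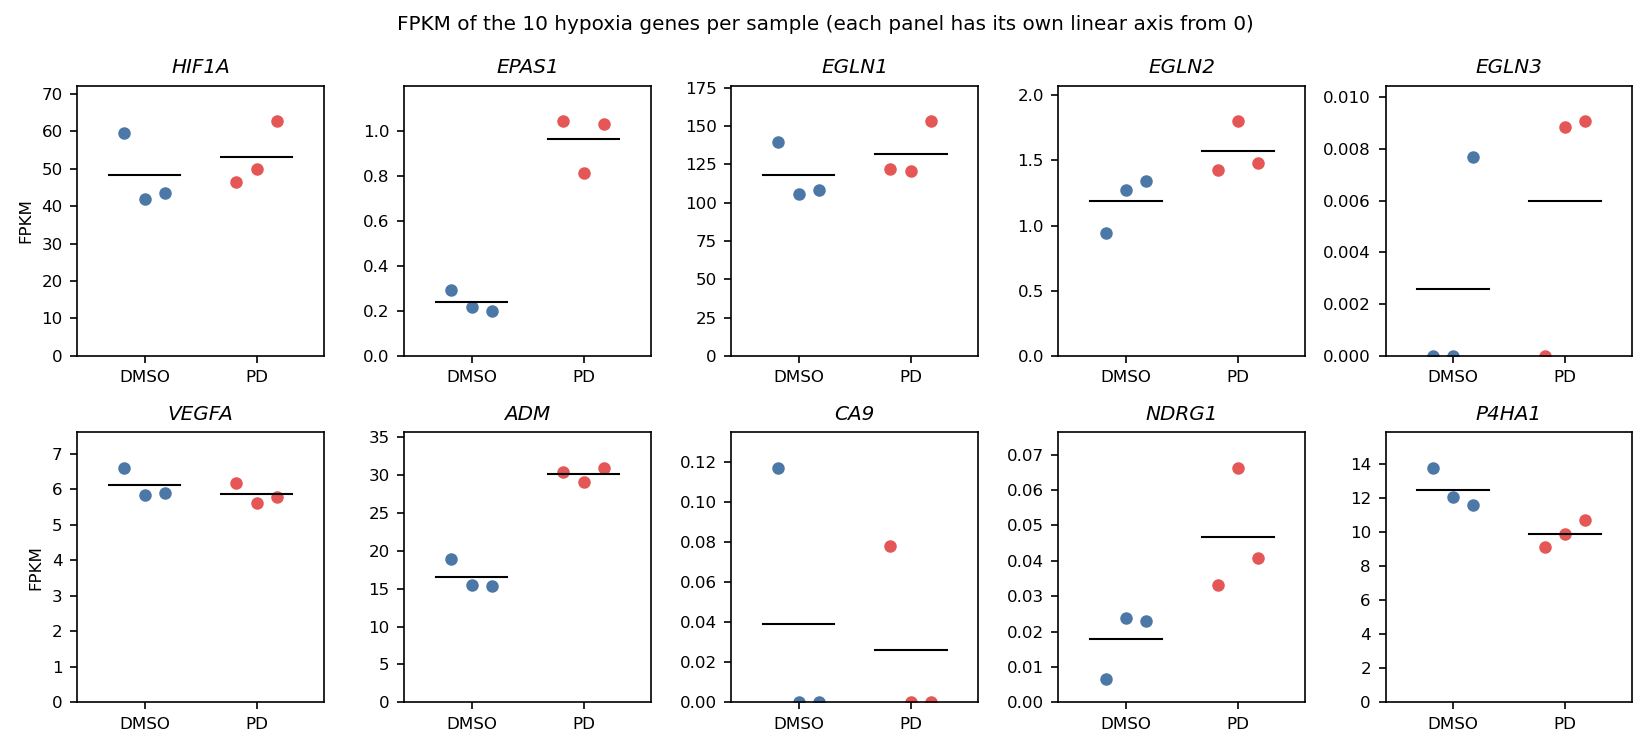
FPKM of each of the 10 genes (y axis, linear from 0, scaled separately per panel) in the 3 DMSO samples (blue) and the 3 PD samples (red), replicates 1 to 3 from left to right, with the group mean as a line. ADM and EPAS1 show a wide gap between the groups, and CA9, EGLN3 and NDRG1 stay below 0.12 FPKM in all 6 samples.

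HIF1A (ENSG00000100644, chromosome 14, 61695513 to 61748259, GRCh38) encodes the broadly expressed alpha subunit. Its level was 59.4, 42.0 and 43.5 FPKM in DMSO and 46.4, 49.9 and 62.7 FPKM in PD. The groups overlapped, and the high value in each was that of the library that stood apart. The means were 48.3 ± 9.66 and 53.0 ± 8.56 FPKM (SD, n = 3), and the log2 fold change was 0.14, with a 95% interval from -0.25 to 0.53 (limma adjusted p = 0.577). Transcript GC content was low in HIF1A, 36.4%. After a correction for GC content the log2 fold change was 0.20 (adjusted p = 0.0809), and without both libraries it did not pass either.

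EPAS1 (ENSG00000116016, chromosome 2, 46293667 to 46386703) encodes HIF-2 alpha, the subunit whose messenger carries an iron-responsive element. It stood at 0.294, 0.217 and 0.202 FPKM in DMSO, from 33, 27 and 26 reads. In PD it stood at 1.04, 0.811 and 1.03 FPKM, from 117, 91 and 113 reads. All PD samples lay above all DMSO samples, and the means of 0.238 ± 0.0496 and 0.962 ± 0.131 FPKM (SD, n = 3) had a ratio of 4.05. The filter left EPAS1 out, since only 2 samples reached 1 FPKM. When it was tested without a filter it passed (log2 fold change 0.66 on the log2(FPKM + 1) scale, limma adjusted p = 0.0194), and with voom on recovered reads, at a minimum of 10 reads in 3 samples, the log2 fold change was 2.02 ± 0.25 (SE, adjusted p = 0.000116), where 16.2% of 16377 genes rose and 6.44% were called higher at 2-fold. In bulk RNA, more cells with EPAS1 and more RNA per cell cannot be told apart. The exact two-sided permutation test gave p = 0.1, the smallest that 3 samples against 3 can give. Even so HIF1A remained far more abundant: its FPKM was 194 to 216 times that of EPAS1 in DMSO samples and 44.5 to 61.5 times in PD samples.

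Of the 3 hydroxylase genes EGLN1 (ENSG00000135766, chromosome 1, 231363751 to 231425044), which encodes PHD2, the main oxygen sensor in most cells, had the highest deposited level, though that of EGLN2 is uncertain for the reason given with that gene. EGLN1 ranked 154 among 19951 protein-coding genes in both groups. Its level was 139, 106 and 108 FPKM in DMSO and 122, 121 and 153 FPKM in PD. The groups overlapped, and here too the 2 libraries that stood apart gave the high values. The log2 fold change was 0.16, with a 95% interval from -0.18 to 0.51 (limma adjusted p = 0.440). The ratio of EGLN1 to HIF1A FPKM was nearly the same in all 6 samples, between 2.34 and 2.62.

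EGLN2 (ENSG00000269858, chromosome 19, 40798996 to 40808433) encodes PHD1. It was measured at 0.940, 1.27 and 1.34 FPKM in DMSO and at 1.43, 1.80 and 1.48 FPKM in PD. The groups did not overlap, but the difference did not pass the test (log2 fold change 0.23, 95% interval -0.07 to 0.54, limma adjusted p = 0.225). The read-through gene RAB4B-EGLN2 covers 93.4% of the EGLN2 coding bases on the same strand, and it was listed with 0 to 2 reads per sample. The labels do not say how reads shared by overlapping genes were counted, so the low level of EGLN2 is uncertain, and the ratio of EGLN1 to EGLN2 is not interpreted.

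EGLN3 (ENSG00000129521, chromosome 14, 33924231 to 34462774), which encodes PHD3 and is often strongly induced by HIF, had 3 reads in all 6 libraries together, 1 in DMSO replicate 3 and 1 each in PD replicates 2 and 3. In a library of this depth 3 reads of EGLN3 correspond to 0.0231 to 0.0272 FPKM, which bounds what 0 reads allow. The gene was therefore not detectable above that limit in either group.

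**Figure D3:**
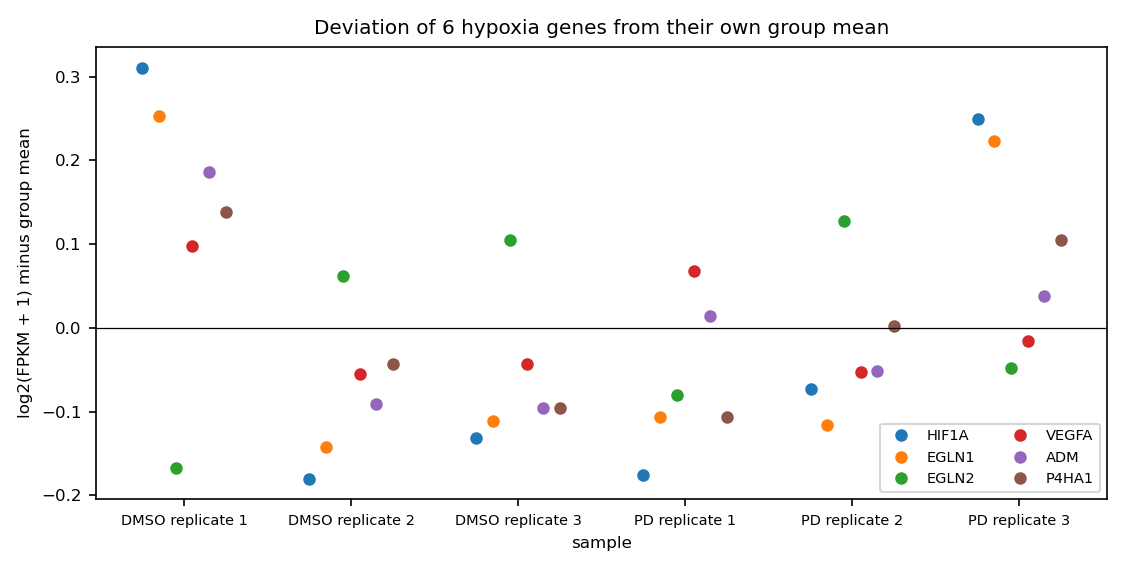
Deviation of log2(FPKM + 1) from the mean of the own group (y axis) in each sample (x axis) for the 6 tested genes, 1 colour per gene. HIF1A and EGLN1 lie above 0 in DMSO replicate 1 and PD replicate 3 and below 0 in the other 4 samples, while EGLN2 goes the other way in both.

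Among the secreted HIF targets ADM (ENSG00000148926, chromosome 11, 10304680 to 10307397), which encodes the vasodilator peptide adrenomedullin, rose. Its level was 18.9, 15.4 and 15.4 FPKM in DMSO and 30.4, 29.01 and 30.9 FPKM in PD. The groups were well apart, and the spread within PD was small. The means were 16.6 ± 2.03 and 30.1 ± 0.997 FPKM (SD, n = 3), a ratio of 1.82. The log2 fold change was 0.83 ± 0.10 (SE, limma adjusted p = 0.00182), and the gene passed in all 18 alternative settings, with values from 0.68 to 0.92 and adjusted p from 0.000102 to 0.0168. The 3 tested genes whose centred log2 profile over the 6 samples was closest to that of ADM were MAFG, PRXL2A and SLC17A5 (Euclidean distance 0.147, 0.151 and 0.152), a description of likeness only. Of the adrenomedullin receptor genes, CALCRL was at most at 0.105 FPKM and RAMP1 was listed at 0 in all samples.

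VEGFA (ENSG00000112715, chromosome 6, 43770184 to 43786487), the main angiogenic growth factor and a widely used readout of HIF, stood at 6.60, 5.83 and 5.89 FPKM in DMSO and at 6.18, 5.61 and 5.78 FPKM in PD. The groups overlapped. The log2 fold change was -0.05 with a 95% interval from -0.26 to 0.16 (limma adjusted p = 0.704), and its upper end lies below the lower end of the ADM interval, 0.59. Its FPKM is divided by a length of 14431 bases, the union of all annotated exons, which lowers it against genes with shorter models. VEGFB, a related factor, stood at 24.8 ± 4.96 and 20.8 ± 2.29 FPKM (SD, n = 3; adjusted p = 0.321). PGF, another ligand of the family, was at 0.567 and 0.606 FPKM on average, and 8 of the 10 VEGF family and receptor genes were below the filter.

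CA9 (ENSG00000107159, chromosome 9, 35673856 to 35681159), a carbonic anhydrase of the cell surface that is among the most responsive hypoxia markers in tumours, had 3 reads in DMSO replicate 1, 2 reads in PD replicate 1 and 0 in the other 4 libraries. A count of 0 allows up to 3 reads, or 0.102 to 0.120 FPKM for this gene. The ARHGEF39 gene on the opposite strand covers 39.1% of the CA9 coding bases, and it was at 3.23, 2.47 and 2.77 FPKM in DMSO and 0.822, 0.752 and 1.04 FPKM in PD. Of the other listed membrane-bound and secreted carbonic anhydrases, CA12 and CA14 had the highest levels. They averaged 0.521 and 0.196 FPKM in DMSO and 0.658 and 0.569 FPKM in PD, and all 5 genes of that list, CA9 included, lay below the filter. In the list of pH and lactate export 0 of 3 genes passed the filter, and SLC16A3, a lactate exporter, averaged 0.207 FPKM in DMSO and 0.233 FPKM in PD.

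NDRG1 (ENSG00000104419, chromosome 8, 133237171 to 133302022), a stress-responsive cytoplasmic protein gene that hypoxia raises in many cell types, had 1, 4 and 4 reads in DMSO and 5, 10 and 6 reads in PD. The groups did not overlap, yet the counts are near the limit of 3 reads, and no fold change is given. With no filter it did not pass (limma adjusted p = 0.435). Of its relatives NDRG3 was the most abundant at 14.8 ± 0.844 and 13.1 ± 0.282 FPKM (adjusted p = 0.163). NDRG4 rose from 0.494 ± 0.122 to 2.13 ± 0.158 FPKM (SD, n = 3, limma adjusted p = 0.00153), but it passed the filter through the PD samples alone.

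P4HA1 (ENSG00000122884, chromosome 10, 73007217 to 73096974) encodes the catalytic subunit of collagen prolyl 4-hydroxylase, an enzyme of the endoplasmic reticulum that also needs oxygen and iron. Its level was 13.8, 12.04 and 11.6 FPKM in DMSO and 9.12, 9.91 and 10.7 FPKM in PD. Every PD sample lay below every DMSO sample. The log2 fold change was -0.30 ± 0.10 (SE), and the adjusted p of 0.0633 in limma missed the threshold. It passed in 6 of 18 alternative settings, at adjusted p between 0.00761 with GC correction and 0.0461 with quantile scaling, and failed in the others up to 0.180. For P4HA2 the log2 difference was -0.05 (limma adjusted p = 0.696) and for the partner subunit P4HB it was -0.0034 (adjusted p = 0.982). Among the 3 tested subunit genes 0 passed, beside 27.1% of all tested genes in either direction.

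The wider pathway was followed with 15 lists that hold 107 genes, of which 70 were tested. Across them 21 genes rose and 9 fell, 42.9% of those tested beside 27.1% of all genes, and the median log2 fold change was 0.00 in both. The lists were chosen with earlier results of these data known, so the difference between these shares is not read as a property of the pathway. TFRC and HMOX1, which also answer to signals other than HIF, had the largest changes. LOX, PFKFB4 and NDRG4 passed the filter through the PD samples alone and 0 genes through the DMSO samples alone; without these 3, 19 rose and 9 fell of 67 (41.8%). Of the 37 list genes below the filter, 16 could be tested with voom at 10 reads. By that test EPAS1, TF, VEGFD and CA14 rose and PDK1 and SLC40A1 fell, where 16.2% of all genes rose and 15% fell. VEGFD reached 10 reads in the PD samples alone and SLC40A1 in the DMSO samples alone. Each therefore entered that test only through the group where it is high. With equal library totals, which moved the median of all genes by -0.13, the split was 13 higher and 15 lower. The split over all genes, available at 2-fold only, moved the same way. It went from 386 higher and 133 lower as reported to 280 higher and 248 lower with equal totals. The count of 30 fell to 16 without DMSO replicate 2 and to 16 without PD replicate 2. How many of all genes passed the adjusted p in these fits was not counted. These falls are therefore not read as particular to the lists. The lists share genes with each other and with the 10 described above. HIGD1A and MRPS17, tested list genes that did not pass, share 89.3% and 100% of their coding bases with other genes on the same strand.

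**Figure D4:**
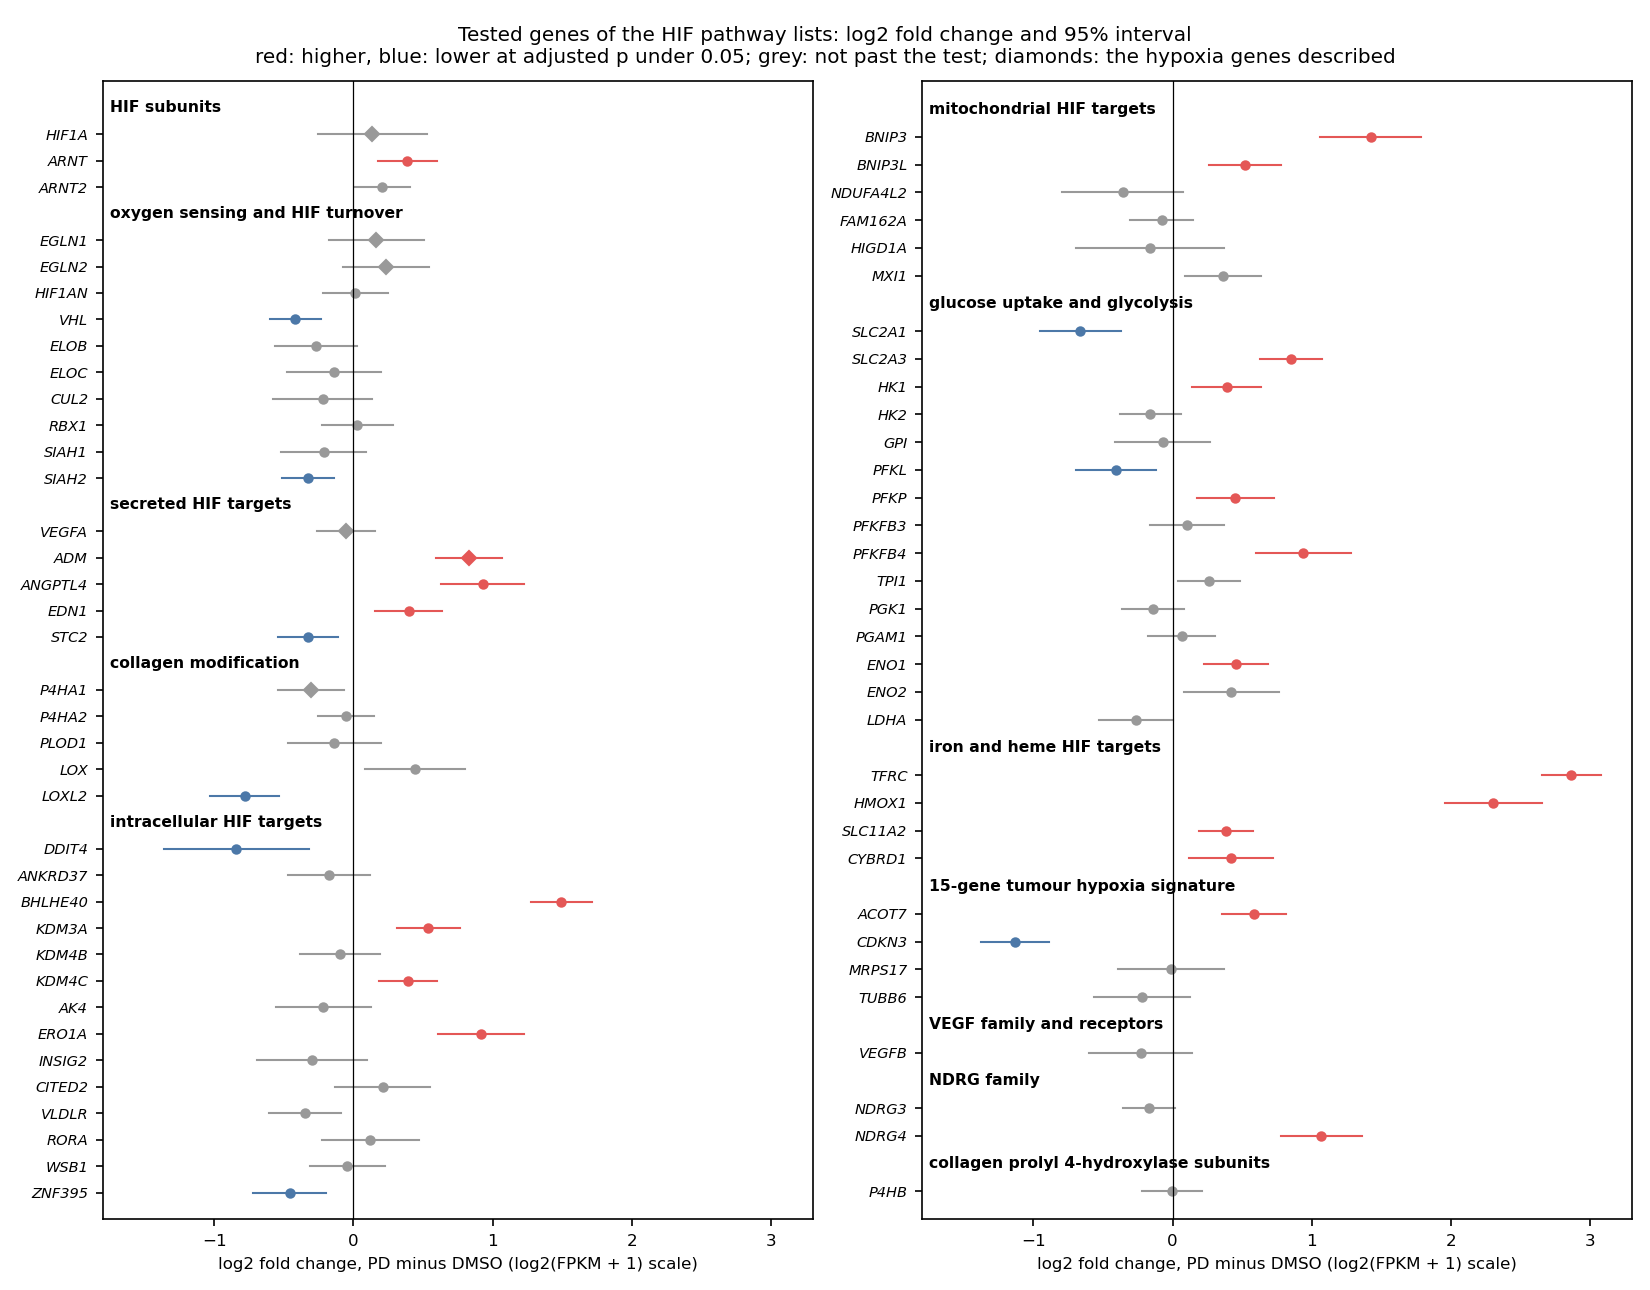
Log2 fold change (x axis, PD minus DMSO on the log2(FPKM + 1) scale) with its 95% interval for each of the 70 tested genes, under the first list that holds it, in red where higher and blue where lower at an adjusted p under 0.05. Red, blue and grey genes stand side by side among the secreted, intracellular and glucose genes, and the 4 tested iron and heme genes are all red.

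Of the HIF subunits ARNT, the shared beta subunit, rose from 15.9 ± 0.914 to 21.1 ± 1.52 FPKM (SD, n = 3; limma adjusted p = 0.0198), while ARNT2 did not pass (log2 fold change 0.21, adjusted p = 0.107). ARNT passed in 13 of 18 alternatives and did not with equal totals, where its value was 0.23 (adjusted p = 0.129). Of all tested genes 14.3% rose and 12.7% fell. In the list of oxygen sensing and HIF turnover 0 of 10 tested genes rose and 2 fell. These were VHL, the recognition subunit of the ligase, from 35.9 ± 0.741 to 26.6 ± 0.986 FPKM (adjusted p = 0.00858), and SIAH2, a ubiquitin ligase for EGLN proteins, from 22.6 ± 0.697 to 17.8 ± 0.814 FPKM (adjusted p = 0.0227). VHL passed in 17 of 18 alternatives and SIAH2 in 13.

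Against 14.3% of all tested genes that rose and 12.7% that fell, secreted HIF targets rose in 3 of 5 tested cases and fell in 1. Besides ADM these were ANGPTL4, a lipoprotein lipase inhibitor, from 7.88 ± 1.28 to 15.8 ± 1.29 FPKM (limma adjusted p = 0.00276), and EDN1, the vasoconstrictor endothelin, from 80.3 ± 6.23 to 106 ± 9.50 FPKM (SD, n = 3; adjusted p = 0.0281). STC2, a secreted glycoprotein hormone, was the gene that fell (log2 fold change -0.33, adjusted p = 0.0359). ANGPTL4 passed in all 18 alternatives, but EDN1 and STC2 in only 10 of 18, with adjusted p up to 0.104 and 0.131. The median of this list was 0.40.

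In the list of other intracellular targets 4 of 14 rose and 2 fell, with a median of -0.07. ZNF395, which is among those that fell, shares 100% of its coding bases with another gene on the same strand, so its level is uncertain. Over all tested genes 14.3% rose and 12.7% fell, which are the shares to set beside each list count in this paragraph. BHLHE40, a transcriptional repressor that also belongs to the circadian clock, rose from 99.5 ± 8.14 to 282 ± 1.11 FPKM (SD, n = 3; limma adjusted p = 0.000145). ERO1A, an oxidase of the endoplasmic reticulum, rose from 16.0 ± 2.78 to 30.9 ± 2.51 FPKM (adjusted p = 0.00316), and the histone demethylase KDM3A from 6.21 ± 0.538 to 9.47 ± 0.672 FPKM (adjusted p = 0.00743). DDIT4, an inhibitor of mTOR signalling, fell from 6.25 ± 2.29 to 2.93 ± 0.432 FPKM (adjusted p = 0.0303) and passed in 10 of 17 alternatives; 38.9% of its coding bases lie under an antisense gene. Of the mitochondrial targets 2 of 6 rose and 0 fell: the mitophagy genes BNIP3, with a log2 fold change of 1.42, and BNIP3L, with 0.52 (adjusted p = 0.00121 and 0.0139). PDK1, the kinase that inhibits pyruvate dehydrogenase, lay just under the filter at 0.993, 0.898 and 0.940 FPKM in DMSO and at 0.398, 0.389 and 0.435 FPKM in PD. The groups did not overlap, and PDK1 fell in voom at 10 reads, with a log2 fold change of -1.21 ± 0.16 (SE, adjusted p = 0.000167). It is described here after its values were seen. The list of collagen modifying enzymes had 1 of 5 tested genes past the test, LOXL2, a lysyl oxidase, which fell from 5.22 ± 0.286 to 2.63 ± 0.361 FPKM (adjusted p = 0.00267), while PLOD1, a lysyl hydroxylase, differed by -0.14 on the log2 scale and did not pass (adjusted p = 0.509).

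Glucose transporters moved in opposite directions. SLC2A1, the transporter most often used as a HIF readout, fell from 12.6 ± 1.96 to 7.57 ± 0.501 FPKM (SD, n = 3; limma adjusted p = 0.00862), and SLC2A3, far more abundant here, rose from 610 ± 18.1 to 1102 ± 49.9 FPKM (adjusted p = 0.0013). Reads of SLC2A3 can be shared with its near-identical neighbour SLC2A14, so its level is uncertain. SLC2A1 passed in all 18 alternatives. SLC2A3 passed in 16, and under quantile scaling its difference was gone at -0.0028 (adjusted p = 0.976). PFKFB4, which regulates glycolytic flux, rose from 0.664 ± 0.0773 to 2.21 ± 0.471 FPKM (adjusted p = 0.00426) after passing the filter through PD samples alone, and the enolase ENO1 rose from 284 ± 15.9 to 391 ± 25.9 FPKM (adjusted p = 0.0141; 12 of 18 alternatives, with 0.629 under quantile scaling). In this list 5 of 15 tested genes rose and 2 fell, beside 14.3% and 12.7% of all tested genes, with a median of 0.11. ALDOA averaged 0.658 and 1.03 FPKM, below the filter, and 93.8% of its coding bases are shared with another gene on the same strand.

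The iron and heme list held 7 genes, of which 3 lay below the filter. All 4 tested genes rose: TFRC, the transferrin receptor, by 2.87 and HMOX1, a heme oxygenase, by 2.30 on the log2 scale (limma adjusted p = 1.24e-05 and 0.00016), and CYBRD1 and SLC11A2, which reduce and import iron, by 0.42 and 0.38 (limma adjusted p = 0.0483 and 0.0147). CYBRD1 passed in 10 and SLC11A2 in 13 of 18 alternatives. Below the filter, SLC40A1, the iron exporter ferroportin, had 23, 15 and 23 reads in DMSO and 5, 5 and 6 reads in PD, without overlap. In voom at 10 reads SLC40A1 fell, with a log2 fold change of -1.68 ± 0.44 (SE, adjusted p = 0.0121). It reached 10 reads in the DMSO samples alone, so it entered that test only through the group where it is high. TF, the iron carrier transferrin, rose by 1.04 (voom adjusted p = 0.0396), at low counts of 9, 14 and 12 reads in DMSO and 24, 19 and 24 in PD. SLC40A1 and TF are named after their values were seen, and CP had 6 reads or fewer in every sample. In a 15-gene signature of tumour hypoxia, which includes VEGFA, ADM, NDRG1 and P4HA1, 3 of 12 tested genes rose and 2 fell, and the median was -0.03. For the signature and the iron list alike, the shares over all tested genes were 14.3% higher and 12.7% lower. ACOT7, an acyl-CoA thioesterase, rose from 13.6 ± 1.59 to 20.7 ± 0.251 FPKM (adjusted p = 0.00597), and the cell cycle phosphatase gene CDKN3 fell from 31.1 ± 1.59 to 13.7 ± 1.66 FPKM (SD, n = 3; adjusted p = 0.000648).

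**Figure D5:**
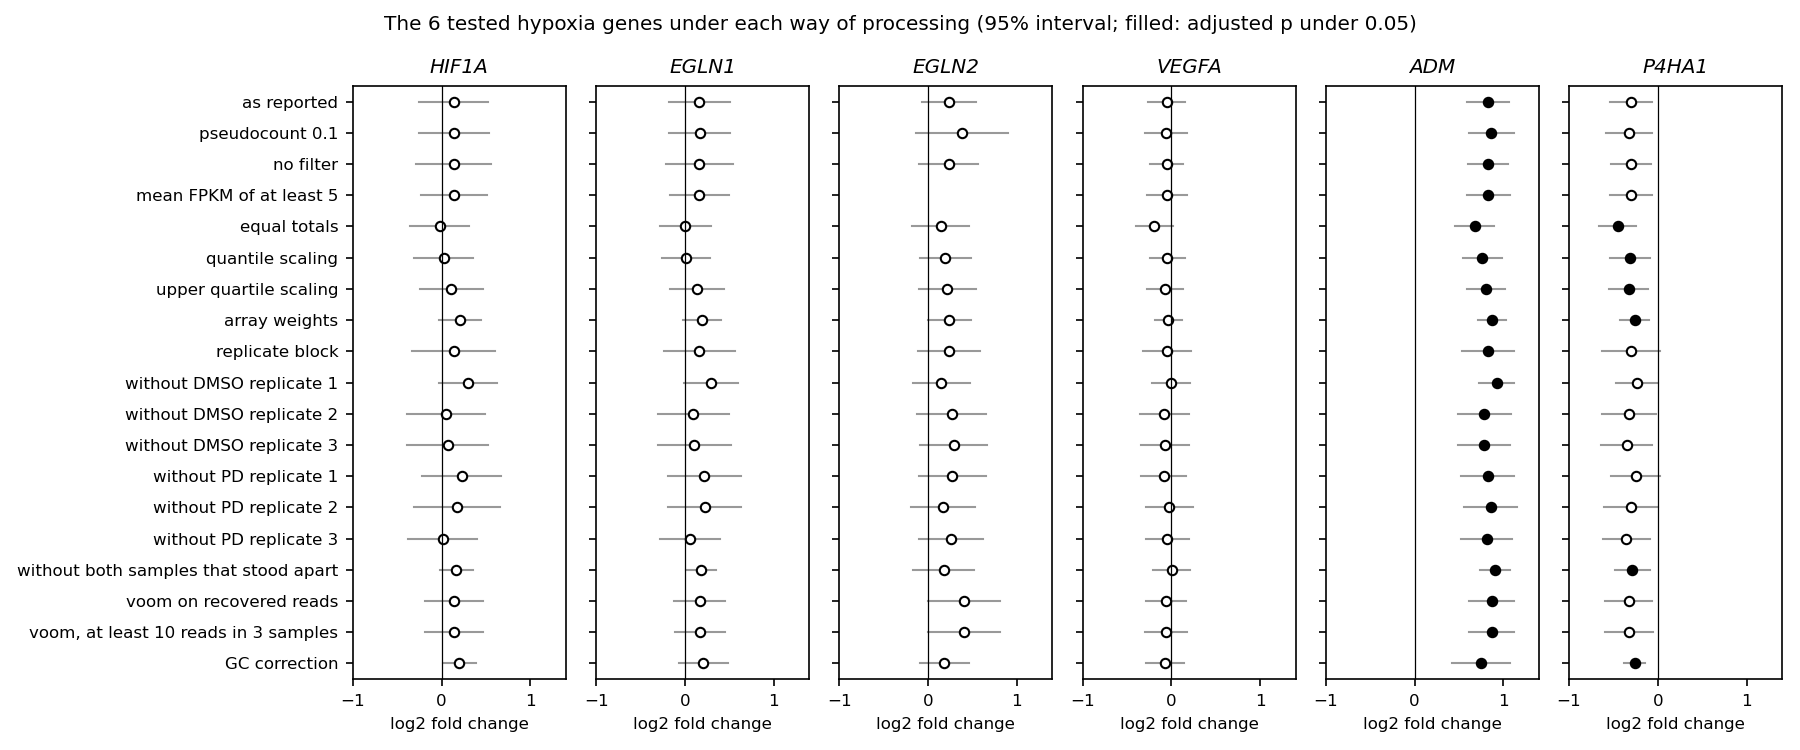
Log2 fold change (x axis) with its 95% interval for the 6 tested hypoxia genes under the reported fit and 18 other settings (y axis), filled where the adjusted p was under 0.05. ADM is filled in every row, P4HA1 in 6 of the 18 alternatives, and the other 4 genes in 0, by a test adjusted over all genes in each setting.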

How the data were processed

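The authors deposited 1 table of FPKM values with a gene length, 1 column per sample, from paired reads of stranded mRNA libraries, per the labels' protocols. Aligner, counter and strand setting were not given in the sources used here. GRCm38 and mm10 are listed in the submitters' processing notes, yet all 58735 identifiers, spans and exon union lengths match human GENCODE 29 (GRCh38), whose coordinates are used. Whole reads were recovered from FPKM and length (100% of values within 0.01 of a whole number). The FPKM denominators were 1.03, 1.10 and 1.08 times the gene totals in DMSO and 1.00, 0.997 and 0.947 times in PD. The FPKM of all genes summed to between 230074 and 237580 in DMSO samples and between 253446 and 273472 in PD samples. The deposited scaling thus differed between the groups and cannot be told apart from the treatment.

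Values were tested as log2(FPKM + 1) with limma 3.58.1 in R 4.3.3 (trend, two-sided, Benjamini-Hochberg adjustment over 13579 genes with at least 1 FPKM in 3 samples). Fold changes on this scale understate those of low genes. The members and lists were chosen with earlier results of these data known, and 2 genes that are not reported here were taken out of the lists. Named were the 10 genes, and per list up to 4 further genes past the test with the largest change, or the 2 highest where fewer than 2 passed. Recovered reads were tested with voom, with the deposited FPKM denominators as library sizes, so voom shares their scaling. On simulated PD against DMSO reads, over 13716 genes, 100% of 3-fold and 46.5% of 1.5-fold changes were recovered, with 2.67% false calls. The simulation changed 200 well-covered genes, with a small fixed dispersion and no shift by GC content. These rates hold for that setting and may be too favourable for the real samples. Voom at a minimum of 10 reads and the GC correction (loess, span 0.3) were added after seeing the data.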

Additional observations from a re-analysis of the deposited data

How the results depend on the processing

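The count of hypoxia genes past the test was 1 as reported (ADM) and 1 in each fit that left out 1 replicate. It was 2, with P4HA1 added, with equal totals, quantile scaling, upper quartile scaling, array weights, GC correction and without both samples that stood apart. It was also 2, with EPAS1 added, with no filter and with voom at 10 reads. Apart from the reported fit and voom at 10 reads, the share of all genes past the same adjusted p was not counted. Over all genes 519 were called at 2-fold as reported, against 962 with a pseudocount of 0.1, 304 at a mean FPKM of at least 5, 1041 with voom on recovered reads and 1672 with voom at 10 reads, and 405 to 538 without 1 replicate. The pathway lists gave 30 as reported and 16 to 30 without 1 replicate. With the replicate number as a block they gave 15. The block left the hypoxia genes at 1 and the 2-fold count over all genes at 512. The list and hypoxia counts ask for an adjusted p under 0.05 only. They are therefore not comparable with the 2-fold counts over all genes. Same-numbered samples correlated at -0.388, 0.168 and -0.163 in their deviations, so the numbers were not taken as pairs, and DMSO replicate 1 correlated best with PD replicate 3. Signs turned for HIF1A with equal totals (-0.022), VEGFA without both samples that stood apart (0.0056) and SLC2A3 with quantile scaling (-0.0028). Without 1 replicate P4HB ranged from -0.045 to 0.055. The cause was not tested for any of these. EGLN3, CA9 and NDRG1 are limited by depth, at 10 reads or fewer per sample.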
